A study of Mus musculus with 3 samples.

Results

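The cells described here are cells of mouse dendritic cell cultures in G2 or mitosis. They carried none, or few, of the genes used to recognise plasmacytoid dendritic cells (pDC), type 1 conventional dendritic cells (cDC1), early progenitors or neutrophils. They were chosen by measured expression, and no dendritic cell gene was required. A barcode had to hold at least 1000 UMIs (counted RNA molecules) and 500 genes, with at most 10% of its UMIs mitochondrial, and at least 8 UMIs summed over Cdc20, Ccnb1, Ccnb2, Cenpf, Ube2c and Cenpa. It then had to hold at most 1 UMI of Ly6d, none of Ccr9 and at most 2 of Siglech. It had to express fewer than 4 of 7 cDC1 genes (Xcr1, Clec9a, Batf3, Naaa, Ifi205, Rab7b, Cadm1) and fewer than 2 of 5 progenitor genes (Cd34, Kit, Ctsg, Adgrg3, Prtn3), with under 10 UMIs of S100a8 and S100a9 together. Of 28903 barcodes that passed the quality filters, 1500 (5.19%) met the rule. They are called dividing unmarked cells below, where unmarked refers only to those genes. The values of the 6 cell cycle genes, and of every gene that follows the cell cycle, are therefore described and not tested.

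The cells came from wild-type C57BL/6 mice and were differentiated in culture with FLT3L, the cytokine that drives dendritic cell development. One library was cultured with 50 µM glutamine, 1 with 1 µM DON in 2 mM glutamine, and 1, the control, with 2 mM glutamine alone. DON resembles glutamine and inhibits enzymes that take glutamine as a substrate. Each group had 1 library made with droplet-based 3' RNA sequencing, so no difference between groups has a replicate check and none was tested. Both treatments are set against the same control library, so that any feature of that library enters both comparisons.

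The 50 µM library held 9817 barcodes, the DON library 8962 and the control library 10497. Their UMI totals lay between 87611658 and 92002827. Across the whole series 73 barcode sequences occurred in more than 1 library, and none of these belonged to a dividing unmarked cell in more than 1 library. The median dividing unmarked cell had 11270.0 UMIs at 50 µM glutamine, 12560.5 with DON and 11025.5 in control, against medians of 7909, 8145 and 6890.0 UMIs over all cells of the same libraries, in the same order. Intervals given with values are exact 95% intervals, Poisson for CPM (UMIs of a gene per 1000000 UMIs summed over the cells named) and Clopper-Pearson for shares of cells, and they cover counting error only.

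As background, a cell that has copied its DNA builds up B-type cyclins, which switch on the kinase Cdk1 and carry the cell into mitosis. Kinetochores then attach chromosomes to the spindle, and the anaphase-promoting complex, with its activator Cdc20 and its ubiquitin-conjugating enzyme Ube2c, marks cyclin B for destruction so that the cell can leave mitosis. In FLT3L cultures, division takes place mostly in precursors, while differentiated dendritic cells divide little and load peptides on MHC class II for CD4 T cells.

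Genes of G2 and mitosis are known to share short promoter elements. These are the CCAAT box and the cell cycle genes homology region, which was searched in 3 forms. One of these forms reads TTTGAA on either strand. Another of the forms is spelled TTCGAA in the search. The remaining form of the region is spelled TTTAAA in the search. The promoters of the 6 genes that chose the cells are shown because they make this visible. Each stretch runs 5′ to 3′ on the gene's own strand, from 130 bases before to 20 bases after the annotated start (RefSeq, GRCm38.p6), and capitals mark either element on either strand, so that a match on the opposite strand appears as its reverse complement.
Cdc20, chr4:118437324-118437473, minus strand: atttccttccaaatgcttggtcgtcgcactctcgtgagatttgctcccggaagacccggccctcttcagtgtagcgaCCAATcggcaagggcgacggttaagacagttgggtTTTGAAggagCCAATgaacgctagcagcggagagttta
Ccnb1, chr13:100786467-100786616, minus strand: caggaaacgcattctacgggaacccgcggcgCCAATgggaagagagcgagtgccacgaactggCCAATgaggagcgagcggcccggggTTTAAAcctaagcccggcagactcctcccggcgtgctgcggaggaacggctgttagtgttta
Ccnb2, chr9:70421535-70421684, minus strand: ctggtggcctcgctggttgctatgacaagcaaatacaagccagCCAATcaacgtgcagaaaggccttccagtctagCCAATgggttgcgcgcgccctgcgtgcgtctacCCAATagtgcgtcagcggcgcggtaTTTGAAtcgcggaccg
Cenpf, chr1:189688067-189688216, minus strand: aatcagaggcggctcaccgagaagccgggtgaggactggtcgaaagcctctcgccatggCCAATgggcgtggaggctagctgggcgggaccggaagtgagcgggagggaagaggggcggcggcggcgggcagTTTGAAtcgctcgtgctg
Ube2c, chr2:164769799-164769948, plus strand: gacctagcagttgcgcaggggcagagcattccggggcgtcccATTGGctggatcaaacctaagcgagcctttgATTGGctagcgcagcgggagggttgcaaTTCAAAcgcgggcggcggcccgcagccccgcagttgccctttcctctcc
Cenpa, chr5:30666756-30666905, plus strand: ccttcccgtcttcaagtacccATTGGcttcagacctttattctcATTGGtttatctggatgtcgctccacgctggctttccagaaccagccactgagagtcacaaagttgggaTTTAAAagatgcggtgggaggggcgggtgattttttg

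All 6 promoters held 1 homology region and at least 1 CCAAT box, and Ccnb2 held 3 boxes. Among the 32851 promoters of 27025 genes in the table, 14.6% held a homology region in the same 150 bases, 24.2% a CCAAT box and 3.598% both. Promoters of spindle and kinesin motor genes held both in 57.1% of cases (16 of 28), and those of cyclins and kinases of mitotic entry in 46.2% (6 of 13). The share was 29.4% for chromosome structure genes, 21.1% for the anaphase-promoting complex and mitotic exit, and 15.4% for kinetochore genes. Of the S-phase list, 12.2% (5 of 41) held both. In the 6 promoters shown no match overlapped another. A match describes the letters in this window and says nothing on whether a factor binds there.

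**Figure D1:**
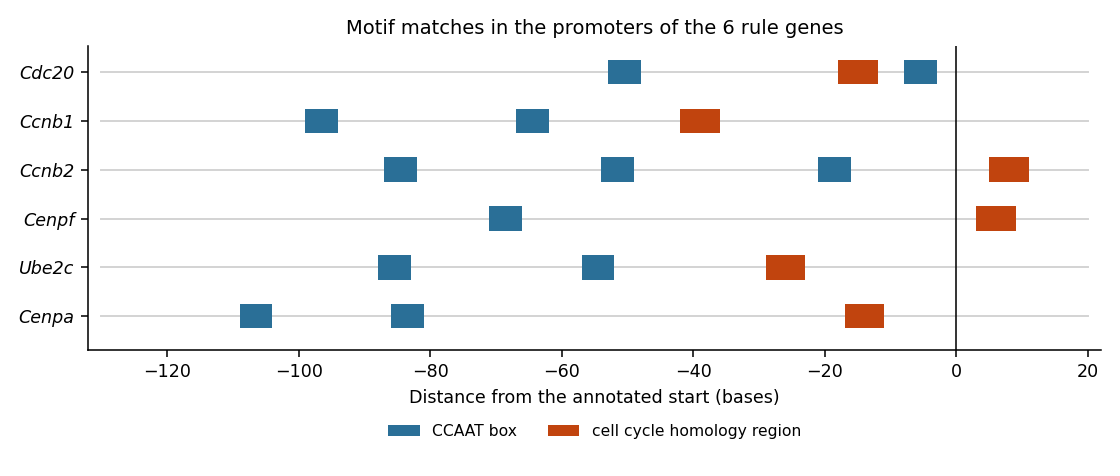
Matches to the CCAAT box and to the cell cycle homology region, either strand, by distance (bases) from the annotated start in the promoters of the 6 genes of the rule. Each promoter holds 1 homology region, and at least 1 CCAAT box lies before it.

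Dividing unmarked cells made up 5.39% (4.95 to 5.86%) of the 50 µM library (520 of 9649 cells), 5.72% (5.24 to 6.22%) of the DON library (508 of 8887) and 4.55% (4.16 to 4.97%) of the control library (472 of 10367). The intervals of the DON and control libraries did not overlap, and those of the 50 µM and control libraries overlapped by a narrow margin. Of all cells with at least 8 UMIs of the 6 genes, however, they made up 21.2% (19.6 to 22.9%) at 50 µM glutamine, 27.4% (25.4 to 29.5%) with DON and 30.3% (28.0 to 32.6%) in control, where the DON and control intervals overlapped. Cells in G2 or mitosis were thus a larger part of both treated libraries, and at 50 µM a smaller part of them was unmarked. Such cells of any lineage made up 25.4% (2452 cells) at 50 µM, 20.9% (1854 cells) with DON and 15.0% (1558 cells) in control.

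The genes that set dividing cells aside differed between libraries. A pDC gene (Ly6d, a surface antigen of lymphoid and pDC precursors; Ccr9, a chemokine receptor; Siglech, a pDC lectin) set aside 47.9% of cells in G2 or mitosis at 50 µM, 49.8% with DON and 40.1% in control. Progenitor genes set aside 42.1% at 50 µM, 23.2% with DON and 20.3% in control. cDC1 genes set aside 2.28% at 50 µM, 11.3% with DON and 23.8% in control, and neutrophil genes between 1.93% and 2.91%. A cell could meet more than 1 of these. Dividing cells of the 50 µM library thus carried progenitor genes in a larger share and cDC1 genes in a smaller share than control, and the unmarked cells are what remained.

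Among unmarked cells of all cycle states, 16.1% (14.9 to 17.5%) were in G2 or mitosis at 50 µM, 16.4% (15.1 to 17.7%) with DON and 11.96% (11.0 to 13.0%) in control. S-phase cells, defined by at least 12 UMIs of Mcm3, Mcm5, Mcm6, Pcna, Tyms and Rrm2 and fewer than 8 of the 6 mitotic genes, made up 11.6% at 50 µM, 11.0% with DON and 6.76% in control. Both dividing states were thus larger in the treated libraries, with 1.40 cells in G2 or mitosis per S-phase cell at 50 µM, 1.48 with DON and 1.77 in control. Unmarked cells with at most 1 UMI of the 6 genes, called low-sum cells below, made up 71.0%, 69.3% and 76.2% in the same order. They are not all outside division, since 9.497% of them at 50 µM, 10.4% with DON and 5.32% in control also met the S-phase rule. These classes rest on UMI thresholds, and the median low-sum cell had 6112 UMIs at 50 µM, 7298.5 with DON and 6419.5 in control. The part that depth plays in these shares was not tested. The share of unmarked cells in G2 or mitosis was also above control in both treated libraries with a threshold of 6 or 12 UMIs. After cells were thinned to 5000 UMIs it was 15.0% at 50 µM, 15.8% with DON and 12.6% in control. These shares lay nearer to each other than those without thinning. The S-phase and low-sum shares were not recomputed. Thinning also lowered the counts of the genes that set cells aside, so that the thinned class is a looser one. Unmarked cells were then 3748 of 7713 at 50 µM, against 3220 of 9649 without thinning.

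**Figure D2:**
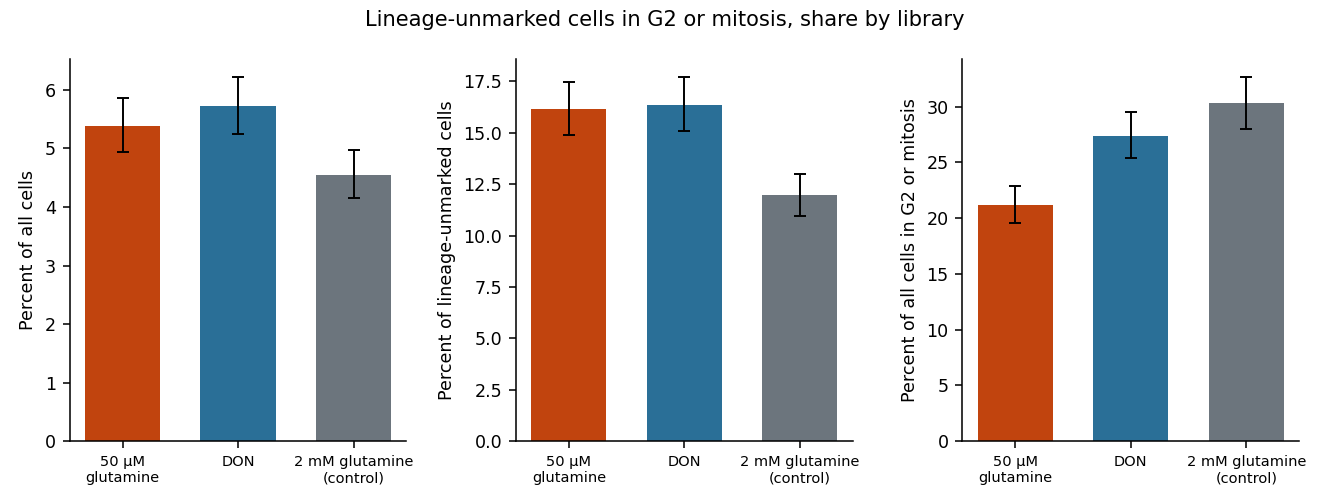
Dividing unmarked cells as a share (percent, with exact 95% intervals for counting error) of all cells (left), of unmarked cells (middle) and of all cells in G2 or mitosis (right), in the 50 µM glutamine, DON and control libraries. They are a larger share of all cells and of unmarked cells in both treated libraries, and 21.2% of the cells in G2 or mitosis at 50 µM, 27.4% with DON and 30.3% in control, where the DON and control intervals overlap.

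Just inside the threshold, at a sum of 8 UMIs, lay 32 cells at 50 µM, 26 with DON and 28 in control. Just outside it, at 7 UMIs, lay 48, 36 and 28 cells in the same order. The median sum was 17 UMIs at 50 µM, 24.5 with DON and 20 in control, with the highest cell of any library at 158. Doublets, marked by the Scrublet method, made up 2.69%, 3.15% and 6.99% of the dividing unmarked cells at 50 µM, with DON and in control, and they were kept. Without them the shares of all cells were 5.52%, 5.88% and 4.63%.

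The name unmarked was set against 13 marker lists, which were lists of cell types and the list of the G2 or mitosis genes of the rule. Each cell was thinned to 5000 UMIs so that depth was equal. The 12, 7 and 13 cells of lower depth were left out at 50 µM, with DON and in control. Some lists hold genes of the rule, such as Naaa for cDC1, Prtn3 for progenitors and S100a8 and S100a9 for neutrophils. Low shares for such lists in the dividing unmarked cells are thus partly fixed by the rule. At least 3 of 14 cDC2 markers (type 2 conventional dendritic cells) were detected in 60.4% of the cells at 50 µM, 55.1% with DON and 57.3% in control (80.4%, 82.7% and 77.3% before thinning). In low-sum cells it was 77.1%, 77.2% and 77.1%, with 566 of 2285, 328 of 2152 and 616 of 3010 cells left out for lower depth. In dividing cells set aside by pDC genes the same share was 31.8%, 38.0% and 40.9%, with 31 of 1174, 11 of 924 and 29 of 625 left out. The rule used no cDC2 gene, and many of these cells carried such genes. Markers of dendritic cell precursors (at least 3 of 10) were detected in 72.8%, 69.5% and 70.6% of the dividing unmarked cells at 50 µM, with DON and in control. In low-sum cells the share was 73.3%, 68.3% and 66.8%, and in dividing cells set aside by pDC genes 69.8%, 73.5% and 76.5%. This list thus did not set the dividing unmarked cells apart.

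Markers of other cell types were found in fewer of the cells, among them types that the rule does not exclude. For pDC, cDC1, progenitor and neutrophil markers, low shares follow partly from the rule, which set cells aside by genes of these lineages. Dividing cells set aside by pDC genes were chosen by such genes, so their shares of pDC markers are a description. At least 3 of 12 pDC markers were detected in 37.6% of the cells at 50 µM, 27.7% with DON and 25.1% in control (61.9%, 52.2% and 45.8% before thinning), against 89.1%, 82.8% and 78.7% of dividing cells set aside by pDC genes. Cox6a2 is 1 of these markers, and without it, a choice made after its values were seen, the shares of dividing unmarked cells after thinning were 23.8%, 24.95% and 23.7%. For cDC1 markers the shares were 7.68%, 17.8% and 19.2%, for progenitor markers 13.8%, 9.18% and 9.15%, and for monocyte or macrophage markers 24.4%, 21.4% and 20.5%, each at 50 µM, with DON and in control. Mature dendritic cell markers were at 1.80% to 2.40%, and neutrophil, B-lineage, T, NK or innate lymphoid, basophil or mast and erythroid or megakaryocyte markers at 0 to 1.40%. Before thinning, a single progenitor gene of the rule was detected in 52.1% at 50 µM, 38.8% with DON and 33.3% in control. No cDC1 gene of the rule was detected in 62.1%, 40.7% and 41.1%, also before thinning. The 50 µM library thus held another mixture of lineage genes than control within the rule. The DON shares after thinning lay close to control. Before thinning, the single progenitor gene was at 38.8% with DON against 33.3%, with median depths of 12560.5 and 11025.5 UMIs. The part of depth in this was not tested. The part of the mixture of lineage genes in the differences below was not tested for either treatment. The differences were also computed in the cells without any of those 12 genes, and in cells with at least 3 cDC2 markers.

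The levels of the genes that chose the cells are fixed by the rule, at 8 UMIs or more in dividing cells and 1 or fewer in low-sum cells, and are given as a description. Cdc20, the activator of the anaphase-promoting complex, had 139.6 CPM (130.2 to 149) in the dividing cells at 50 µM, 193 (183 to 204) with DON and 186 (174 to 197) in control, against 1.65 to 2.83 CPM in low-sum cells. Ube2c had 742 CPM (720.5 to 764) at 50 µM, 961 (938 to 985) with DON and 894 (869 to 919) in control, against 7.15 to 12.8 CPM in low-sum cells. Both were lowest at 50 µM, where the intervals did not overlap those of the other libraries. For Ccnb1 the intervals at 50 µM (152.2 to 172.9 CPM) and in control (157.6 to 179.6) overlapped. Since the rule selects on these genes, the intervals are no evidence of a difference between libraries. Cenpa, the centromeric histone, had 519.8 CPM at 50 µM, 622 with DON and 614 in control.

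Genes of mitosis that the rule did not name were high in the same cells, although they follow the cell cycle with the rule genes. Top2a, which untangles sister chromatids, had 1378 CPM in dividing cells at 50 µM, 1167 with DON and 1109 in control, and 51.8 to 89.9 CPM in low-sum cells. Plk1, a kinase that drives spindle assembly and mitotic exit, had 124 CPM at 50 µM, 153 with DON and 125 in control, and 16.4 to 21.2 CPM in S-phase cells. Hmmr, a spindle protein, had 249.7 CPM at 50 µM, 238 with DON and 222 in control, and 21.1 to 31.2 CPM in S-phase cells. Cenpe, the kinesin that carries chromosomes to the spindle equator, had 309 CPM at 50 µM, 329.7 with DON and 308 in control, and 47.4 to 50.1 CPM in S-phase cells.

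By list, dividing unmarked cells against low-sum cells were at least 1.5-fold higher in all 3 libraries in 29 of 29 spindle and motor genes, 25 of 25 kinetochore genes, 18 of 18 cyclins and kinases, 19 of 19 chromosome structure genes and 12 of 18 genes of the anaphase-promoting complex and mitotic exit. Over all 6584 genes compared, 7.32% were higher in this way and 5.22% lower. Lower were 10 of 10 markers of mature dendritic cells, 10 of 13 NF-kB and inflammatory genes, 8 of 13 cDC2 markers and 6 of 12 MHC class II genes. H2-Ab1, an MHC class II chain, had 810.4 CPM in dividing cells at 50 µM, 1306 with DON and 2140.2 in control, and 1951, 2363 and 3129.5 CPM in low-sum cells of the same libraries in the same order. This chain was thus lower in dividing than in low-sum cells of each library. The S-phase cells were chosen by such genes too, so the counts against them are a description and support nothing. At least 1.5-fold higher in all 3 libraries than in S-phase cells were 27 of 29 spindle and motor genes, 16 of 26 kinetochore genes, 15 of 19 cyclins and kinases (1 was lower), 8 of 19 chromosome structure genes and 7 of 18 genes of the anaphase-promoting complex and mitotic exit, beside 3.21% of 6472 genes. Of 46 replication genes 42 were lower, beside 3.48% of all genes. Of the dividing unmarked cells 13.5% at 50 µM, 13.8% with DON and 14.0% in control themselves held at least 12 UMIs of the 6 S-phase genes. Pcna, the replication clamp and a gene of the S-phase rule, had 128 CPM at 50 µM, 102 with DON and 92.8 in control, and 388 to 447 CPM in S-phase cells.

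Within the dividing cells a higher sum of the 6 genes went with less replication and more spindle expression. After thinning, cells with fewer than 5 UMIs of the 6 genes summed to 3977 CPM of the S-phase list at 50 µM, 3641 with DON and 3241 in control. Cells with at least 20 UMIs summed to 1377 CPM at 50 µM, 1297 with DON and 1069.6 in control. The spindle and motor list ran the other way, from the lowest to the highest of the 4 ranges at 6731 to 10498 CPM at 50 µM, 5853 to 9630.4 with DON and 5779 to 9699.8 in control. Cells of at least 20 UMIs made up 12.6% (64 cells) at 50 µM, 23.6% (118 cells) with DON and 18.7% (86 cells) in control. The 50 µM library thus held the smallest part of cells with the highest mitotic sums. This cycle position moves with each comparison of the libraries below, and its part in them was not tested. Over the 4 ranges the glycolysis list summed to 2595 to 3265 CPM at 50 µM, 4873 to 4937 with DON and 5817 to 6473 in control. These are pooled sums without intervals, given as a description.

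**Figure D3:**
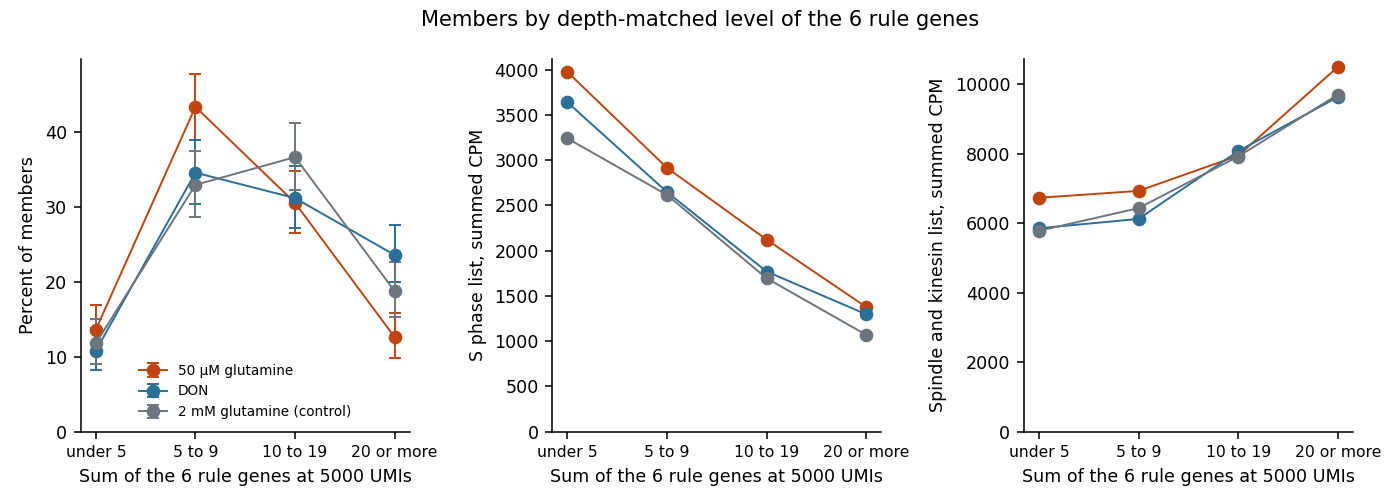
Dividing unmarked cells in 4 ranges of the summed UMIs of the 6 rule genes after thinning each cell to 5000 UMIs: percent of the cells of each library in each range with exact 95% intervals (left), and summed CPM of the S-phase list (middle) and of the spindle and kinesin list (right), for the 50 µM glutamine, DON and control libraries. S-phase expression is lower and spindle expression higher toward the upper ranges in each library, and the range of 20 or more holds 12.6% of the cells at 50 µM, 23.6% with DON and 18.7% in control.

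For the comparison of libraries, log2 ratios were taken of treated over control after adding 5 CPM to each. At 50 µM glutamine 36 genes were at least 2-fold higher than control (0.594% of 6064 compared) and 60 were at least 2-fold lower (0.989%). With DON 1 gene was 2-fold higher (0.0173% of 5776) and 9 were 2-fold lower (0.156%). The 50 µM library thus stood much further from control than the DON library did. Scaling by median-of-ratios changed the median of all genes at 50 µM by -0.12 and gave 24 higher and 74 lower genes, so that 24.5% in place of 37.5% of these genes were higher. Values below are to be read beside all-gene medians of 0.07 at 50 µM and 0.03 with DON.

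Gene lists were counted at 1.5-fold, which 4.07% of all genes passed upward and 3.13% downward at 50 µM, and 0.139% upward and 0.537% downward with DON. The 5 mitotic lists stayed near the median of all genes. At 50 µM, 0 of 29 spindle genes, 0 of 25 kinetochore genes and 0 of 17 anaphase-promoting complex and exit genes were 1.5-fold apart in either direction, and 1 of 18 cyclins and kinases and 1 of 19 chromosome structure genes were higher. Their medians lay between 0.06 and 0.11, beside 0.07 for all genes, and over the alternatives they ranged from -0.08 to 0.18, so they are given no direction. With DON no member of these lists was 1.5-fold apart. Expression of the mitotic machinery within these cells was thus close to control in both treated libraries, as far as a rule that selects on such genes can show. Cdkn3, a phosphatase that acts on cyclin-dependent kinases and a late cycle gene, had 92.1 CPM at 50 µM, 163 with DON and 154 in control (log2 ratios -0.71 and 0.08), and Tubb4b, a spindle tubulin, had 474, 639.8 and 651 CPM in the same order.

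Some replication genes were higher at 50 µM. Of 39 measured S-phase genes 6 were at least 1.5-fold higher and 0 lower, with a median of 0.31. Cdt1, which licenses replication origins, had 28.8 CPM (24.6 to 33.4) at 50 µM, 16.3 (13.4 to 19.7) with DON and 12.1 (9.38 to 15.4) in control. Dtl, which directs the destruction of Cdt1 during replication, had 37.5 CPM at 50 µM, 17.9 with DON and 17.3 in control. Both were highest at 50 µM, with log2 ratios of 0.98 for Cdt1 and 0.93 for Dtl there and 0.32 and 0.04 with DON. In S-phase cells the list's median at 50 µM was 0.04, while in low-sum cells it was 0.51. Among dividing cells with a thinned sum of at least 10 it was 0.40.

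Of 14 DNA damage response genes 3 were higher as well, with a median of 0.46, among them Rad54l and Brca1, which act in homologous recombination. Over the alternatives this median ranged from 0.13 to 0.51. Brca1 had 35.4 CPM at 50 µM, 19.2 with DON and 21.1 in control. Among regulators of the G1 phase, 4 of 20 genes were higher at 50 µM and 1, Cdkn3, was lower. Cdk6, a kinase of G1 progression, had 123 CPM (114 to 132) at 50 µM, 64.3 (58.3 to 70.7) with DON and 58.6 (52.4 to 65.4) in control. Cdkn1a, the inhibitor p21, had 97.7 CPM at 50 µM, 42.6 with DON and 57.5 in control. H1f0, a linker histone that builds up in cells that leave the cycle, was low at 50 µM, with 54.4 CPM (48.6 to 60.7), against 150.2 (141 to 159.9) with DON and 175 (164 to 186) in control.

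Amino acid response genes separated the 50 µM library. This response runs through the transcription factor ATF4, which cells make when amino acids are short. Of 26 measured ATF4 targets 7 were at least 1.5-fold higher at 50 µM and 0 lower, with a median of 0.35, whereas with DON 0 of 21 were 1.5-fold apart, with a median of 0.07. Asns, which makes asparagine from glutamine and aspartate, had 51.2 CPM (45.6 to 57.3) at 50 µM, 3.97 (2.59 to 5.82) with DON and 3.12 (1.82 to 5.003) in control. It was detected in 164 of 520 cells at 50 µM, 18 of 508 with DON and 15 of 472 in control. Its log2 ratio was 2.79 at 50 µM and 0.14 with DON. Asns was also highest at 50 µM in S-phase cells (59.4 CPM at 50 µM, 6.40 with DON, 7.35 in control). The same held in low-sum cells (15.0, 3.25 and 2.60 CPM in the same order). With DON it was below control in S-phase cells.

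The Asns promoter is shown because this gene is the clearest of the response. The gene lies at chr6:7675169-7693254 on the minus strand (GENCODE vM21, GRCm38). The capitals mark TGATGAAAC, the response element bound by ATF4 and its partners, a motif chosen after the values were seen.
Asns, chr6:7693190-7693339, minus strand: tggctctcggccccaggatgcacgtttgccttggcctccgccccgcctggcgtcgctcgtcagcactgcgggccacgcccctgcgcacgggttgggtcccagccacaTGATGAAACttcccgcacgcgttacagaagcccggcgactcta
The same letters, on either strand, stood in 51 of 32851 promoters (0.155%).

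Other ATF4 targets were highest at 50 µM as well. Atf5, a related transcription factor, had 23.9 CPM at 50 µM, 2.75 with DON and 4.41 in control. Phgdh, the first enzyme of serine synthesis, had 88.9 CPM (81.5 to 96.8) at 50 µM, 42.0 (37.2 to 47.2) with DON and 35.7 (30.8 to 41.0) in control. Slc7a5, a carrier that exchanges glutamine for leucine, had 40.4 CPM at 50 µM, 21.2 with DON and 15.4 in control. Each was high at 50 µM, and the intervals of Phgdh overlapped between DON and control.

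Enzymes that feed one-carbon units and phosphoenolpyruvate were also higher. Mthfd2, the mitochondrial folate enzyme, had 139.6 CPM at 50 µM, 63.8 with DON and 73.2 in control. Pck2, the mitochondrial phosphoenolpyruvate carboxykinase, had 73.6 CPM (66.8 to 80.8) at 50 µM, 23.4 (19.8 to 27.4) with DON and 18.7 (15.3 to 22.8) in control. Purine synthesis takes nitrogen from glutamine, and 4 of its 12 measured genes were at least 1.5-fold higher at 50 µM, against 0 of 11 with DON. Impdh2, which makes the guanine branch, had 259 CPM at 50 µM, 166 with DON and 160.1 in control. Of 13 pyrimidine synthesis genes 0 were 1.5-fold apart in either comparison.

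Glycolysis genes were low at 50 µM and, by a smaller amount, with DON. At 50 µM 13 of 17 were at least 1.5-fold lower, with a median of -1.20, and with DON 4 of 16, with a median of -0.38. Pgk1, which makes ATP in glycolysis, had 160.1 CPM (150.1 to 171) at 50 µM, 421 (405 to 437) with DON and 560.5 (541 to 581) in control. Aldoa, the aldolase, had 201 CPM at 50 µM, 510.3 with DON and 655 in control. The 3 libraries did not overlap for either gene. Slc16a3, which exports lactate, had 5.72 CPM (3.965 to 7.9998) at 50 µM, 9.77 (7.52 to 12.5) with DON and 36.2 (31.3 to 41.6) in control, so that it was low in both treated libraries.

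Targets of HIF1, the transcription factor of low oxygen, shared this order. Outside glycolysis 4 of 11 were 1.5-fold lower at 50 µM (median -0.49) and 3 of 11 with DON (median -0.27). Ankrd37, a HIF1 target at chr8:45996902-46005707, had 5.39 CPM (3.69 to 7.61) at 50 µM, 35.1 (30.7 to 40.0) with DON and 99.1 (90.9 to 108) in control. Its log2 ratios of -3.32 at 50 µM and -1.38 with DON put it among the lowest genes of both comparisons. It was detected in 29 of 520 cells at 50 µM, 135 of 508 with DON and 219 of 472 in control. Mif, a cytokine, had 204 CPM at 50 µM, 608 with DON and 733 in control. P4ha1, a collagen hydroxylase, was low in both, with 14.5 CPM at 50 µM, 16.6 with DON and 38.4 in control.

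Sterol genes were low at 50 µM. Of 20 cholesterol synthesis genes 11 were at least 1.5-fold lower there, with a median of -0.61, and 0 with DON, with a median of 0.11. Fdps, which makes farnesyl diphosphate, had 139.9 CPM (131 to 149.8) at 50 µM, 409.7 (394 to 426) with DON and 345 (329.8 to 361) in control. Idi1, the step before it, had 49.0 CPM at 50 µM, 131 with DON and 115 in control. DON was thus the highest library for both, although its interval for Idi1 overlapped that of control. Among fatty acid genes Scd2, a desaturase, had 80.8 CPM (73.8 to 88.4) at 50 µM, 274 (262 to 287) with DON and 265 (252 to 279) in control, and 2 of 10 such genes were lower at 50 µM.

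**Figure D4:**
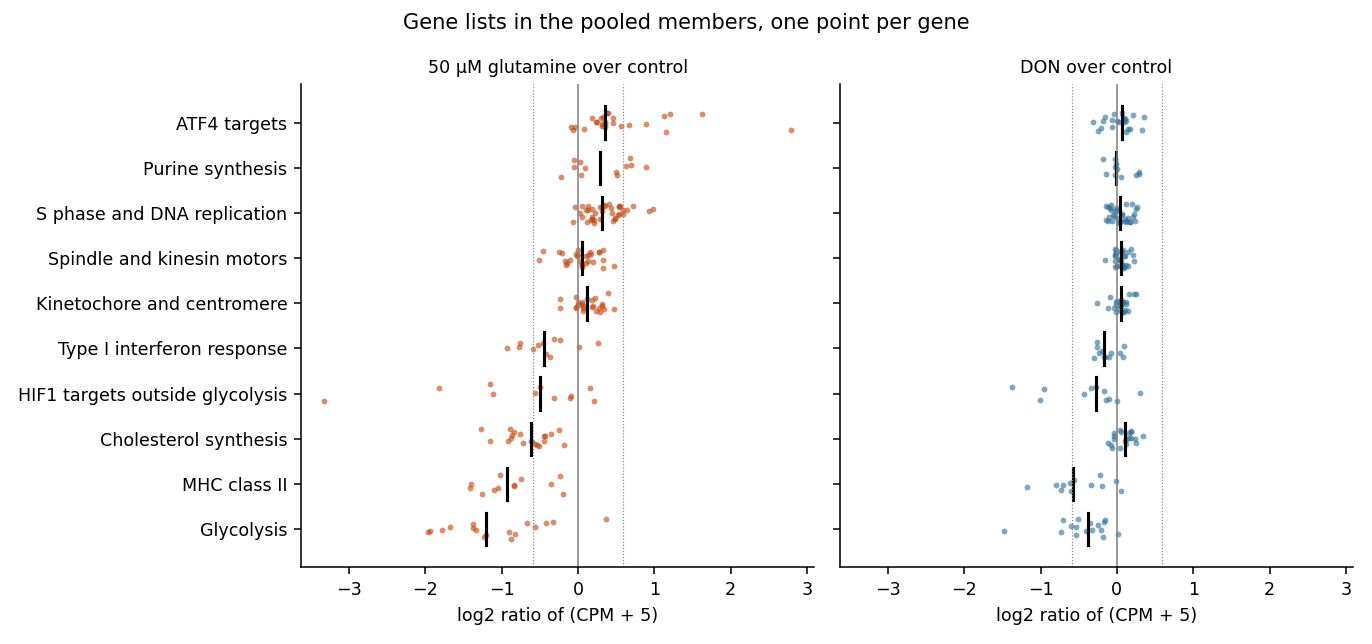
Log2 ratios of (CPM + 5) in dividing unmarked cells, 50 µM glutamine over control (left) and DON over control (right), with 1 point per gene of 10 gene lists, a black bar at each list's median and dotted lines at 1.5-fold. At 50 µM the medians of glycolysis (-1.20), MHC class II (-0.94) and cholesterol synthesis (-0.61) lie lowest, with DON those of MHC class II (-0.58) and glycolysis (-0.38), and the spindle and kinetochore lists lie near 0 in both.

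Among the 26 gene lists, MHC class II had the lowest median with DON. Of 12 members 6 were at least 1.5-fold lower with DON (median -0.58) and 9 at 50 µM (median -0.94). Cd74, the invariant chain that guides class II molecules, had 2776 CPM at 50 µM, 3884 with DON and 5961 in control. H2-Ab1, given above, had log2 ratios of -1.40 at 50 µM and -0.71 with DON. H2-Eb1, a class II beta chain, had 561 CPM (542 to 580.4) at 50 µM, 772 (751 to 794) with DON and 1347 (1316 to 1378) in control. These chains were lower in both treated libraries, without overlap of intervals. The class II transactivator Ciita was lower in both too, by less, with 90.1 CPM (82.6 to 98.0) at 50 µM, 83.0 (76.2 to 90.3) with DON and 107 (98.3 to 116) in control (log2 ratios -0.23 and -0.34). H2-DMa, which loads peptides, had 577, 733 and 739 CPM in the same order.

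Among all cells in G2 or mitosis, the share set aside by cDC1 genes had the same order (2.28% at 50 µM, 11.3% with DON, 23.8% in control). Within the dividing unmarked cells, at least 3 cDC1 markers were detected in 7.68% at 50 µM, 17.8% with DON and 19.2% in control. The DON share was thus close to control. The summed level of markers of mature dendritic cells, which carry much class II, was lower in both treated libraries. The 10 markers summed to 222 CPM at 50 µM, 199 with DON and 414 in control, where Ccl5 alone held 203 CPM. Of 5 measured markers 3 were 1.5-fold lower at 50 µM (1 was higher), and 3 of 4 with DON. After thinning, cells with at least 3 of these markers made up 1.97% at 50 µM, 1.80% with DON and 2.40% in control. Ccl5, a chemokine, had 47.8 CPM (42.4 to 53.7) at 50 µM, 50.5 (45.2 to 56.3) with DON and 203 (191 to 216) in control. Its log2 ratio at 50 µM was -1.98. It was 0.90 when cells with markers of other lineages or of mature dendritic cells were left out. Ccl5 is itself among those markers, so that this filter acts partly on its own values. The part of cells with such markers in the class II values was not tested. Among cells with at least 3 cDC2 markers the median of the class II list was -0.92 at 50 µM and -0.59 with DON. In cells without any of the 12 progenitor and cDC1 genes of the rule it was -0.74 and -0.41. In cells with fewer than 3 cDC2 markers it was -1.27 and -0.33, and in low-sum cells -0.69 and -0.33, where 9 of 12 genes were 1.5-fold lower at 50 µM and 1 of 12 with DON. Ifi30, which reduces disulfides of antigens, had 146 CPM at 50 µM, 341 with DON and 397 in control. Of 12 interferon response genes 4 were lower at 50 µM (median -0.44) and 0 with DON (median -0.17). Over the alternatives the median at 50 µM ranged from -0.56 to -0.13. Ifi27l2a, an interferon-induced gene, had 1224 CPM at 50 µM, 1957 with DON and 2338 in control.

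With DON, 0 of 11 receptors of precursors and 0 of 18 lineage regulators were 1.5-fold apart. Their medians were 0.09 and 0.03, beside 0.03 for all genes. At 50 µM, 1 of 11 receptors and 3 of 17 regulators were higher and 0 lower, beside 4.07% of all genes higher. The medians there were 0.27 and 0.15, beside 0.07 for all genes. Flt3, the receptor of the cytokine in these cultures, had 91.1 CPM (83.6 to 99.1) at 50 µM, 67.8 (61.6 to 74.4) with DON and 63.2 (56.7 to 70.3) in control. Csf1r, the receptor of macrophage colony-stimulating factor, had 99.2 CPM at 50 µM, 60.1 with DON and 54.8 in control, and it was the single member of 11 receptors that was 1.5-fold higher. Irf8, a regulator of cDC1 and pDC, had 535 CPM at 50 µM, 653 with DON and 641 in control. Irf4, a regulator of cDC2, had 14.8 to 18.4 CPM and Zbtb46, a regulator of conventional dendritic cells, 13.5 to 19.1 CPM over the 3 libraries. Myb, Runx2 and Mef2c, of 17 lineage regulators, were 1.5-fold higher at 50 µM. Runx2, which is high in pDC, had 208 CPM at 50 µM, 129 with DON and 128 in control.

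The highest gene at 50 µM was Cox6a2, a cytochrome oxidase subunit that is high in pDC. It had 308 CPM (294 to 322) at 50 µM, 27.2 (23.3 to 31.5) with DON and 29.2 (24.9 to 34.1) in control, and was detected in 249 of 520, 77 of 508 and 57 of 472 cells. Dividing cells set aside by pDC genes had 869.7 CPM at 50 µM, 346 with DON and 276 in control. The share of cells with at least 3 pDC markers counts this gene, and is given above with and without it. Plac8, a gene of precursors and pDC, had 2584 CPM at 50 µM, 1117 with DON and 988 in control. Satb1, a chromatin organiser, had 66.5 CPM at 50 µM, 32.8 with DON and 24.1 in control.

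Snhg1 had a higher level at 50 µM in dividing cells and a lower one in low-sum cells. This host gene of small nucleolar RNAs had 204 CPM in dividing cells at 50 µM, 65.8 with DON and 71.9 in control, while in low-sum cells it had 108, 102 and 122 CPM in the same order. Several other ratios changed when some of the cells were left out. Lyz2, the lysozyme of myeloid cells, had 445 CPM at 50 µM, 277 with DON and 169 in control, and its log2 ratio at 50 µM was 1.37, against -0.10 when cells with other lineages' markers, Lyz2 among them, were left out. Ctr9, a subunit of the PAF1 elongation complex, had 190.1 CPM at 50 µM, 116 with DON and 72.1 in control, and its ratio at 50 µM was 0.25 among cells with at least 3 cDC2 markers and 1.34 among all. Pf4, a platelet chemokine, had 23.1 CPM at 50 µM, 15.3 with DON and 169 in control, where 1 cell held 94.0% of its UMIs. Without the top cell of each library its ratios were -0.05 at 50 µM and 0.17 with DON. Gzmc, a granzyme and the single gene 2-fold higher with DON, was detected in 5 cells there, 1 of which held 79.2% of its UMIs. Lpl, lipoprotein lipase, had 35.7 CPM at 50 µM, 189 with DON and 94.1 in control, from 14, 39 and 18 cells.

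Most of the 2-fold genes lay on the same side in other cells of the same libraries, which are no independent check, since any feature of a library enters all its cells. Of the 36 genes higher at 50 µM, 30 were at least 1.5-fold higher in S-phase unmarked cells (3.73% of all genes), 29 in low-sum cells (3.66%) and 31 in dividing cells set aside by pDC genes (3.74%), while 1, 0 and 1 were lower. Of the 60 lower genes 50, 43 and 56 were lower in those cells in the same order, beside 3.36%, 2.07% and 4.71% of all genes, while 3, 2 and 0 were higher. Of the 9 genes lower with DON 7, 6 and 8 were lower, beside 0.621%, 0.671% and 1.89%, while 1 was higher in each. Gzmc was higher in none of them, and 1.5-fold lower in S-phase cells and in dividing cells set aside by pDC genes. The glycolysis median at 50 µM was -1.20 in dividing unmarked cells, -0.70 in S-phase cells, -0.58 in low-sum cells and -1.22 in dividing cells set aside by pDC genes. Whether the effect differs between these cells could not be tested with 1 library per group.

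**Figure D5:**
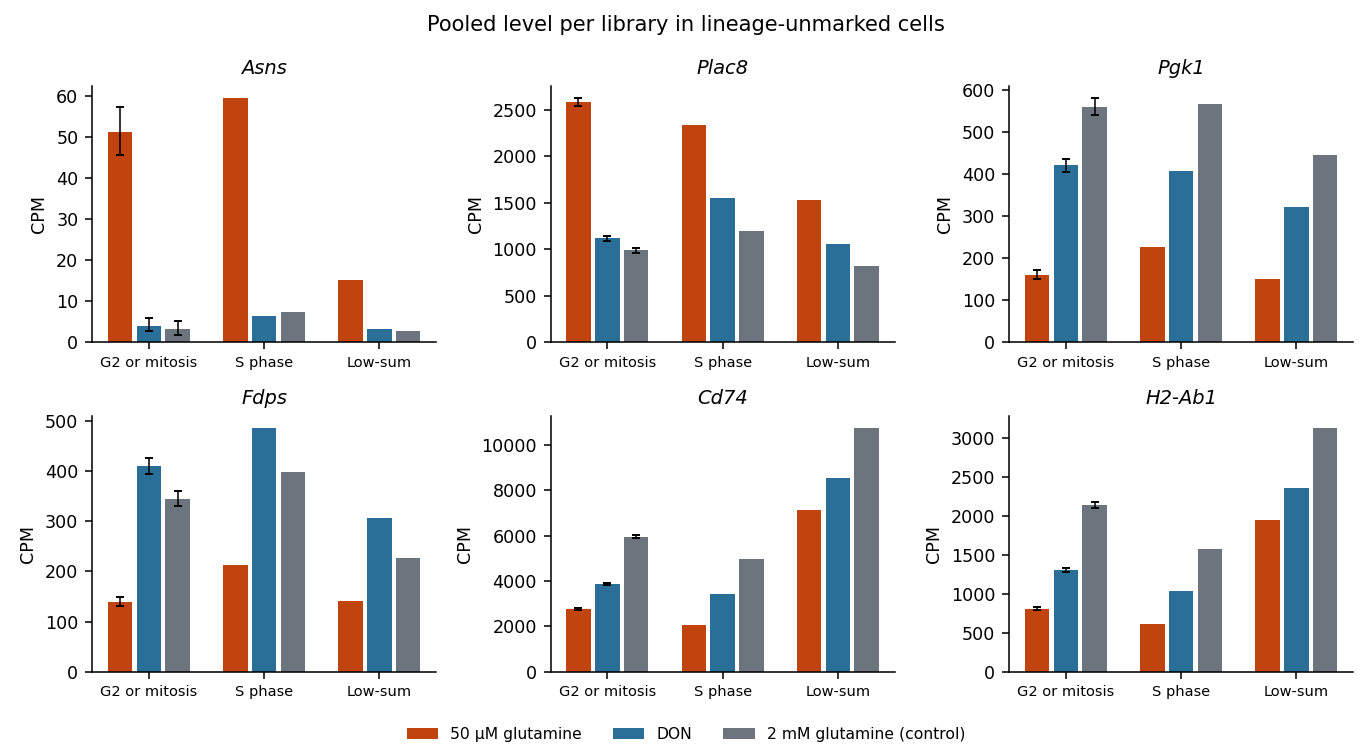
Expression (CPM) of 6 genes in unmarked cells in G2 or mitosis, in S phase and with at most 1 UMI of the 6 rule genes (low-sum), as bars for the 50 µM glutamine, DON and control libraries, with exact 95% Poisson intervals on the cells in G2 or mitosis. Asns and Plac8 are highest at 50 µM, Fdps is lowest there, and Pgk1, Cd74 and H2-Ab1 are lowest at 50 µM with DON between it and control in each class of cells.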

How the data were processed

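The 3 libraries of mouse dendritic cell cultures were sequenced as single cells in droplets, from the 3' end of each RNA. The authors deposited matrices of raw counts of UMIs, not normalised, over 32285 features. The sources differ on the software: cellranger is at version 6.0.0 per the file headers, and at 3.1.0, with the mm10 genome, per the submitters' processing notes, and the gene annotation is not given in the sources used here.

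Counts were summed over the chosen cells of each library and scaled to CPM. For log2 ratios, 5 CPM was added to treated and control CPM before dividing, among genes of at least 20 CPM in 1 of the compared libraries, and genes were called at 2-fold and list members at 1.5-fold. With 1 library per group, no test was run. The members of the class, 26 gene lists and 13 marker lists (695 genes, 2 of them not in the files) were chosen with earlier results of these data known. Genes were named as the 10 highest and 10 lowest ratios per treatment among genes of at least 50 CPM, leaving out predicted, immunoglobulin, haemoglobin, mitochondrial and ribosomal genes, plus the 3 most changed measured members per list, up to 2 highest genes of each marker list, the 6 rule genes and a fixed set that includes Plk1, Flt3, Irf8 and Asns. Hmmr, Cenpe, Pcna, Cd74, Ciita and H2-DMa fall outside this and were named after their values were seen. Doublets were marked with Scrublet in scanpy 1.11.5 at an expected rate of 0.08. Thinning used 5000 UMIs per cell and seed 1. Gene positions come from GENCODE vM21 (GRCm38) and promoters from RefSeq. Python 3.11.15, numpy 2.4.6, scipy 1.17.1, pandas 2.3.3 and matplotlib 3.10.9 were used, and the code for ratios and intervals was tested on simulated data.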

Additional observations from a re-analysis of the deposited data

How the results depend on the processing

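Thresholds of the rule, depth, mitochondrial share, doublets, lineage markers, scaling, pseudocount and the filter on low genes were varied, and 6 alternatives were chosen after seeing the data: at least 3 or fewer than 3 cDC2 markers, none of the 12 progenitor and cDC1 genes, a thinned sum of at least 10, leaving out a gene's top cell, and leaving Cox6a2 out of the pDC markers. Leaving out other lineages removed cells with at least 3 markers, before thinning, of a single type. The types were B lineage, T, NK or innate lymphoid, basophil or mast, monocyte or macrophage, and mature dendritic cells. This left 286 of 520 cells at 50 µM, 275 of 508 with DON and 263 of 472 in control. Of these markers, Ly6c2 is also in the precursor list. Thinning was applied to the exclusion genes as well. In the 6 alternatives that recompute it, the share of all cells was above control in both treated libraries. It was 6.28%, 6.45% and 5.18% (50 µM, DON, control) at 6 UMIs, 4.18%, 4.74% and 3.56% at 12 UMIs, 7.29%, 7.92% and 6.59% after thinning, 4.87%, 5.01% and 4.08% without cells of other lineages, and 6.45% at 50 µM and 6.52% with DON at 5% mitochondrial UMIs. Of unmarked cells it was 18.8%, 18.4% and 13.6% at 6 UMIs, and 12.5%, 13.6% and 9.35% at 12 UMIs. After thinning it was 15.0%, 15.8% and 12.6%. It was 18.2%, 17.9% and 13.2% without other lineages, and 17.8% at 50 µM at 5% mitochondrial UMIs.

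Counts of 2-fold genes moved with the pseudocount, the filter and the choice of cells. At 50 µM 36 higher genes became 55 with 1 CPM added, 8 with 20 CPM added, 15 at 50 CPM, 66 with fewer than 3 cDC2 markers, 95 without progenitor and cDC1 genes and 57 at a thinned sum of 10, and 60 lower genes became 28 with 20 CPM and 36 at 50 CPM. With DON 9 lower genes became 3 with 20 CPM and 4 at 50 CPM. The 1 higher gene with DON became 3 at 12 UMIs, at 5% mitochondrial UMIs, with at least 3 cDC2 markers, with 1 CPM and with each cell weighted alike, 4 with fewer than 3 cDC2 markers, 18 without progenitor and cDC1 genes, 9 at a thinned sum of 10, 2 with median-of-ratios, 7 without the filter, and 0 without doublets, without other lineages and with 20 CPM. The causes were not tested.

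No list median of at least 0.2 in size changed sign, and 22 of 832 recomputed medians moved by at least 0.2. Among named genes at least 1.5-fold apart 19 recomputed values changed sign. At 50 µM these were Prss34 (-1.18 at 6 UMIs, -0.11 without other lineages, -0.12 with fewer than 3 cDC2 markers), Pf4 (1.10 at 5% mitochondrial UMIs, 2.23 without progenitor and cDC1 genes, 0.019 at a thinned sum of 10), Ccl5 (0.90) and Lyz2 (-0.10) without other lineages, Il7r (0.71 with fewer than 3 cDC2 markers) and Isg15 (0.044 without progenitor and cDC1 genes). With DON these were Gzmc (-0.60 after thinning, -0.71 at a thinned sum of 10), Pf4 (0.56 at 5% mitochondrial UMIs, 0.55 with at least 3 cDC2 markers, 0.84 at a thinned sum of 10, 0.17 without its top cell), Lpl (-0.15 without other lineages, -1.28 without progenitor and cDC1 genes) and Ebf1 (-0.0093 with at least 3 cDC2 markers). No paired analysis was possible because each group has 1 library, and for the same reason no replicate could be left out.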
